A study of Mus musculus with 6 samples.

Results

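Cholesterol genes were followed in stem and progenitor cells of mouse bone marrow that lack Spred1 (KO, 3 arrays) and in wild-type cells (WT, 3 arrays). The product of Spred1 restrains the Ras-ERK kinase cascade, through which growth factors signal. The genes were chosen by name: a list of 31 symbols covers the enzymes that make cholesterol, the regulators of the sterol-sensing factor SREBP, and the genes of the sterol receptor LXR and of cholesterol export. The array names 30 of them, since Sc4mol is an older symbol of Msmo1, which is counted once. All 30 were well above background on all 6 arrays and entered the test, among 19611 genes tested of 34650 gene names. They comprise 18 synthesis enzymes, 6 SREBP regulators and 6 LXR and efflux genes, read by 43 probes of which 40 were tested.

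Both groups were labelled as strain C57BL/6 and were sorted by the same gate, which takes bone marrow cells that lack CD48 and lineage markers and carry c-Kit and Sca-1. KO denotes loss of Spred1, and WT its intact counterpart. The allele, the sex and age of the mice and the number of animals behind an array are not given in the sources used here. The p-values therefore measure the spread between these arrays, which may be technical. RNA was labelled with Cy3 after a low-input amplification and hybridised to Agilent 1-colour arrays. Each value below is the log2 processed intensity minus the 75th percentile of its array, so that 0 stands for a probe as bright as that percentile. The levels of different genes were not compared, except to name the brightest marker of a cell type list. The brighter probe stood for a gene with several, and the marker sums below add levels over probes and serve to compare arrays.

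Cells build cholesterol from acetyl-CoA through mevalonate, isoprenoid diphosphates, squalene and lanosterol. When sterol in the endoplasmic reticulum is scarce, Scap escorts SREBP to the Golgi, where it is cleaved, and the freed factor switches on the enzyme genes, whereas Insig proteins hold Scap back when sterol is plentiful. Surplus sterol, as oxysterols, activates LXR, which switches on the exporters Abca1 and Abcg1 and the ubiquitin ligase Mylip that removes the LDL receptor. In mice, joint loss of Abca1 and Abcg1 is known to expand haematopoietic stem and progenitor cells.

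SREBP binds sterol elements in promoters and acts there with NF-Y, which binds CCAAT boxes, and with Sp1. RefSeq windows of the GRCm38.p6 build, from 250 bases before to 50 bases after each start, matched 15 of the 18 synthesis enzymes, 5 of the 6 SREBP regulators and 5 of the 6 LXR and efflux genes. The 150 bases before the start are printed for Mvd, Lss, Msmo1 and Nsdhl, synthesis enzymes whose 3 KO arrays all lay below the 3 WT arrays. They are also printed for Hmgcs1, 1 of 2 synthesis enzymes with the sterol element core, and for Insig1, the SREBP regulator with a relaxed form of it. The windows lie at chr8:122443423-122443572 (Mvd, minus strand), chr10:76531455-76531604 (Lss, plus strand), chr8:64733579-64733728 (Msmo1, minus strand), chrX:72918371-72918520 (Nsdhl, plus strand), chr13:119690201-119690350 (Hmgcs1, plus strand) and chr5:28071262-28071411 (Insig1, plus strand). Each reads 5′ to 3′ along the gene. Capitals mark CCAAT boxes (CCAAT, or ATTGG on the other strand) in the first 5 lines, CACCCCAC in the Hmgcs1 line as well, and GTGGCGTG, a relaxed form of the sterol element on the other strand, in the Insig1 line.
Mvd: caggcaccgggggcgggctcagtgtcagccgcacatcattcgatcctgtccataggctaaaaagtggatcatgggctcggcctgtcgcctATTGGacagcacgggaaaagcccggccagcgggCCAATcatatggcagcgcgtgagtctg
Lss: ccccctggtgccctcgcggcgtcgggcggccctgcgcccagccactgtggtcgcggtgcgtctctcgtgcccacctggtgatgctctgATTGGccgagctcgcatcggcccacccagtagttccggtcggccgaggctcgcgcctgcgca
Msmo1: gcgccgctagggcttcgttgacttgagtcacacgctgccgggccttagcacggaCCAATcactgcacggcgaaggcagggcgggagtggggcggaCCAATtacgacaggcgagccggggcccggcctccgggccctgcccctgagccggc
Nsdhl: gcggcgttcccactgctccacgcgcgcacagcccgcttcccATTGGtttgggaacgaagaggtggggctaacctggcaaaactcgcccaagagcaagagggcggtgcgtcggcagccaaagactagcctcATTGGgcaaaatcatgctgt
Hmgcs1: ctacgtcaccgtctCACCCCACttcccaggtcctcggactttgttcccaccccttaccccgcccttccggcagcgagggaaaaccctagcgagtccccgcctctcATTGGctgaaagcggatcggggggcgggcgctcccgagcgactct
Insig1: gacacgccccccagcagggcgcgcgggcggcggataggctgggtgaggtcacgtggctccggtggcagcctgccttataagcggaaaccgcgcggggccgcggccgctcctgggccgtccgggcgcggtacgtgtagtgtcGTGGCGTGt

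CCAAT boxes and Sp1 boxes were both common in these windows. Several genes have more than 1 window, and a gene counts if any of them holds the letters on either strand. CCAAT was present in 14 of the 15 synthesis enzymes, against 41.1% of the 27025 genes in the table. The Sp1 box GGGCGG was present in 14 of 15 too, against 38.2% of all genes, and by window in 15 of 18, where CCAAT was in 14 of 18. The sterol element core CACCCCAC was found in 2 of 15, Acat2 and Hmgcs1, against 3.3% of all genes, and the E-box CACGTG in 3 of 15, against 8.09%. Among the SREBP regulators 4 of 5 held CCAAT and 5 of 5 held GGGCGG, and among the LXR and efflux genes 2 of 5 and 3 of 5. A relaxed form of the sterol element, CACNCCAC, which includes the core and was added after the first search, was found in the same 2 synthesis enzymes and in Insig1, against 7.12% of all genes. These are matches of letters, read without a measure of binding. Of the enzymes with the core, Hmgcs1 measured -0.28 and Acat2 -0.03 (KO minus WT on the log2 scale), and the 13 without it had a median of -0.39.

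The arrays of both genotypes were alike in quality. Between 52.3% and 53.4% of the probes were well above background on each array, none was saturated, and the correlation between any pair of arrays was 0.988 to 0.995 across genes, which are not independent replicates. KO replicates 1 and 2 and WT replicates 1 and 2 lay on slide 1, and KO replicate 3 and WT replicate 3 on slide 2, which was scanned apart. WT replicate 1 stood apart from the others, with a summed level of 12 neutrophil markers of 102 (in multiples of the 75th percentile), against 337 to 440 on KO arrays and 528 and 495 on WT replicates 2 and 3. Of 3 Spred1 probes, the one ending at 117005965 on chromosome 2 (mm9) read 0.18, 0.27 and 0.05 in KO against 1.21, 1.11 and 1.12 in WT. The probe ending at 116998550 read 0.23, 0.01 and -0.15 in KO against -2.20, -2.67 and -2.37 in WT, and the probe ending at 117005011 read 0.78, 0.56 and 0.57 in KO against 0.85, 0.74 and 0.74 in WT. The first of these probes (log2 difference -0.98 ± 0.09 SE) and the second (2.44 ± 0.16 SE) each separated all KO from all WT arrays, in opposite directions. The third overlapped. The sources used here do not say which part of Spred1 was deleted, so these probes split the arrays by label but do not show which group lacks the gene.

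The cholesterol genes had lower values in KO, most of all the synthesis enzymes, but none passed the test. With limma and Benjamini-Hochberg adjustment over all 19611 genes, 0 of 30 were called at 0.05, where 4 genes in all (0.0204%) were. At an unadjusted limma p under 0.05, 6 of 30 were lower in KO, all of them synthesis enzymes, against 5.24% of all genes, and 0 of 30 were higher, against 6.96%. The mean was lower in KO for 29 of 30 cholesterol genes, where 51.7% of all genes had a lower mean. Under quantile normalization Pmvk and Nr1h2 turned to 0.03 each, and with the array median as the scale Lpcat3, the gene with a higher mean, turned to -0.12. All 3 KO arrays lay below all 3 WT arrays for 7 of 30, against 10.2% of all genes. The median log2 difference, KO minus WT, was -0.42 for the synthesis enzymes, -0.17 for the SREBP regulators and -0.09 for the LXR and efflux genes, and -0.01 for all tested genes. At these medians KO stood at 74.8%, 88.8% and 94.2% of WT. In bulk RNA of a sorted gate, fewer cells of a type and less RNA per cell cannot be told apart.

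**Figure D1:**
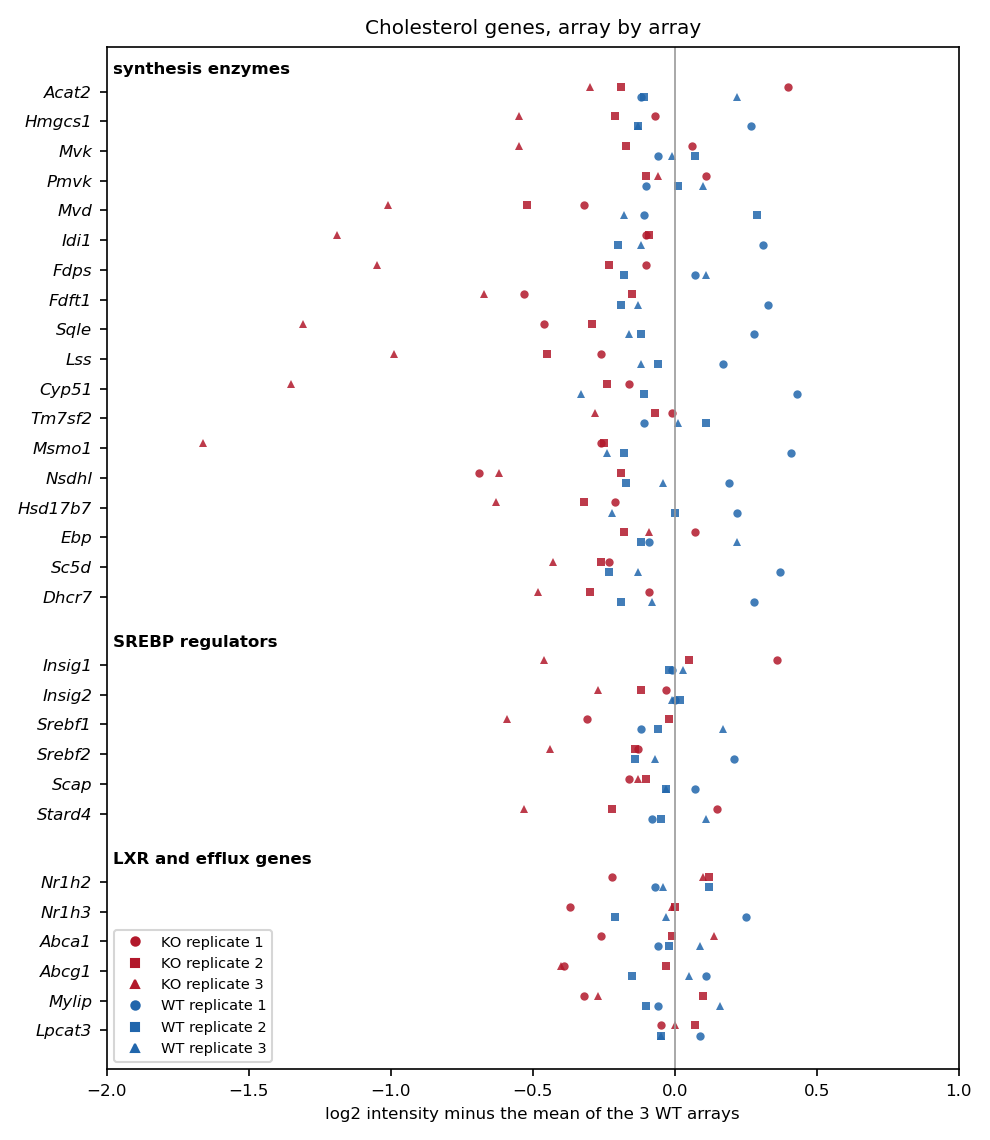
The plot gives, for each of the 30 cholesterol genes, the log2 intensity on each array minus the mean of the 3 WT arrays. Red symbols are KO and blue symbols WT, and the symbol shape is the replicate number. KO replicate 3 is the lowest array for 15 of the 18 synthesis enzymes, and the KO and WT arrays of the LXR and efflux genes lie among each other.

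Synthesis opens with Acat2, which joins acetyl-CoA units, and Hmgcs1, which makes HMG-CoA. Acat2 read -0.87, -1.46 and -1.57 in KO, against -1.39, -1.38 and -1.05 in WT, with the highest and the lowest array both KO. Its log2 difference was -0.03 ± 0.20 SE (95% interval -0.51 to 0.45, limma adjusted p = 0.962). Hmgcs1 read 1.93, 1.79 and 1.45 in KO, against 2.27, 1.87 and 1.87 in WT. KO replicate 1 lay above WT replicates 2 and 3, so the genotypes overlapped, and the difference was -0.28 ± 0.17 SE (limma adjusted p = 0.503).

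Mevalonate is then phosphorylated by Mvk and Pmvk and decarboxylated by Mvd. Mvd was the enzyme of this step with separated genotypes: it read -1.34, -1.54 and -2.03 in KO, against -1.13, -0.73 and -1.20 in WT. Its probe lies on chromosome 8, 124957750 to 124957809 (mm9). KO stood at 65.3% of WT (log2 difference -0.62 ± 0.21 SE, 95% interval -1.11 to -0.12, limma adjusted p = 0.379). Mvk read 2.17, 1.94 and 1.56 in KO, against 2.05, 2.18 and 2.10 in WT, and overlapped (-0.22 ± 0.16 SE, limma adjusted p = 0.565). Pmvk measured -0.02 ± 0.10 SE with a 95% interval of -0.26 to 0.22, and its lowest array was a WT one.

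Idi1, which interconverts the isoprenoid units, and Fdps, which joins them to farnesyl diphosphate, were set apart by a single KO array. Idi1 read 1.70, 1.71 and 0.61 in KO, against 2.11, 1.60 and 1.68 in WT. Fdps read 2.38, 2.25 and 1.43 in KO, against 2.55, 2.30 and 2.59 in WT. On KO replicates 1 and 2 Idi1 lay within the WT range, and KO replicate 1 did so for Fdps. Both genes measured -0.46, with SE of 0.31 for Idi1 and 0.25 for Fdps (limma adjusted p = 0.551 and 0.481).

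The enzymes from farnesyl diphosphate to lanosterol were the step in which 3 of 3 had an unadjusted limma p under 0.05, with a median difference of -0.56. Sqle, the squalene epoxidase and a rate-controlling enzyme of the pathway, read 2.45, 2.62 and 1.60 in KO, against 3.19, 2.79 and 2.75 in WT. Every KO array lay below every WT array, and KO stood at 62.2% of WT (-0.69 ± 0.27 SE, 95% interval -1.34 to -0.03, limma adjusted p = 0.403). Lss, which closes the sterol rings, read -1.56, -1.75 and -2.29 in KO, against -1.13, -1.36 and -1.42 in WT. It was separated too, at 67.7% of WT (-0.56 ± 0.20 SE, limma adjusted p = 0.381). Fdft1, the squalene synthase, read -0.40, -0.02 and -0.54 in KO, against 0.46, -0.06 and 0.00 in WT, with KO replicate 2 inside the WT range (-0.45 ± 0.19 SE, limma adjusted p = 0.409, 95% interval -0.90 to 0.00). The Sqle probe lies on chromosome 15, 59162688 to 59162747, and the Lss probe on chromosome 10, 76015992 to 76016051 (mm9).

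Of the 8 enzymes from lanosterol to cholesterol, all had lower means in KO, with a median difference of -0.35, and 2 had an unadjusted limma p under 0.05. Msmo1, the oxidase that starts removal of methyl groups, had the largest difference of the 30 genes but also the largest spread: it read 2.02, 2.03 and 0.62 in KO, against 2.69, 2.10 and 2.04 in WT. KO replicates 1 and 2 lay within 0.1 of WT replicates 2 and 3, and the difference was -0.72 ± 0.40 SE (60.9% of WT, 95% interval -1.68 to 0.24, limma adjusted p = 0.489). Nsdhl, the dehydrogenase that follows it, read -1.17, -0.67 and -1.10 in KO, against -0.29, -0.65 and -0.52 in WT. Here the low arrays were KO replicates 1 and 3, and KO replicate 2 lay just below WT replicate 2 (-0.50 ± 0.16 SE, 70.8% of WT, limma adjusted p = 0.374, the smallest of the 30). Hsd17b7, the ketosterol reductase of the same reaction series, read -1.86, -1.97 and -2.28 in KO, against -1.43, -1.65 and -1.87 in WT, and overlapped at 1 array of each genotype (-0.39 ± 0.16 SE, limma adjusted p = 0.403).

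Cyp51, the lanosterol demethylase, read -0.87, -0.95 and -2.06 in KO, against -0.28, -0.82 and -1.04 in WT, again with KO replicate 3 far below the rest (-0.58 ± 0.35 SE, limma adjusted p = 0.506). Sc5d, a desaturase, read 0.37, 0.34 and 0.17 in KO, against 0.97, 0.37 and 0.47 in WT. Here WT replicate 1 was far above the rest (-0.31 ± 0.17 SE). Dhcr7, which catalyses the last reduction to cholesterol, measured -0.29 ± 0.16 SE, with WT replicate 1 the highest array as well. The sterol reductase Tm7sf2 (-0.12 ± 0.11 SE) and the isomerase Ebp (-0.07 ± 0.13 SE) differed by less than the spread between arrays. Their 95% intervals were -0.38 to 0.14 and -0.37 to 0.23. The Msmo1 probe lies on chromosome 8, 67196982 to 67197041, and the Nsdhl probe on chromosome X, 70202803 to 70202862 (mm9).

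The 5 synthesis enzymes with separated genotypes were Mvd, Sqle, Lss, Msmo1 and Nsdhl. For each the exact two-sided permutation p over arrays was 0.1, the smallest that 3 arrays against 3 allow. All KO arrays lay above all WT arrays for 0 of 18 synthesis enzymes, against 9.36% of all genes.

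The SREBP regulators had smaller differences, between -0.30 and -0.02, and 0 of 6 had an unadjusted limma p under 0.05 (adjusted p 0.472 to 0.973). Srebf2, the gene of the SREBP that acts mainly on cholesterol enzymes, read 0.75, 0.74 and 0.44 in KO, against 1.09, 0.74 and 0.81 in WT (-0.23 ± 0.13 SE). Srebf1, whose products act mainly on fatty acid genes, read -1.88, -1.59 and -2.16 in KO, against -1.69, -1.63 and -1.40 in WT (-0.30 ± 0.16 SE). For both genes at least 1 KO array lay within the WT range. Scap was tight within genotypes, at 3.29, 3.35 and 3.32 in KO against 3.52, 3.42 and 3.42 in WT. Its groups did not overlap, but the difference was -0.13 ± 0.08 SE (95% interval -0.32 to 0.05).

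Insig1, itself a known SREBP target, spread widely among the KO arrays, at -0.04, -0.35 and -0.86 in KO against -0.41, -0.42 and -0.37 in WT. The SD was 0.41 in KO and 0.02 in WT (n = 3 each), so the means (-0.42 in KO, -0.40 in WT) hide arrays on both sides. Insig2 read 1.15, 1.06 and 0.91 in KO, against 1.18, 1.20 and 1.17 in WT, with no overlap and a difference of -0.14 ± 0.09 SE. Stard4, a carrier of cholesterol between membranes, read 2.26, 1.89 and 1.58 in KO, against 2.03, 2.06 and 2.22 in WT. As with Insig1, KO replicate 1 was the highest and KO replicate 3 the lowest of the 6 arrays (-0.20 ± 0.18 SE). For Scap and Insig2 the two-sided permutation p, computed exactly over arrays, was 0.1.

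The LXR and efflux genes overlapped between the genotypes in 6 of 6 cases, where 80.4% of all genes did, and 0 of 6 had an unadjusted limma p under 0.05 (adjusted p 0.441 to 0.993). Abcg1, the exporter that passes cholesterol to HDL, had the largest difference of the group: it read 3.72, 4.08 and 3.71 in KO, against 4.22, 3.96 and 4.16 in WT (-0.28 ± 0.13 SE, 95% interval -0.59 to 0.04). KO replicate 2 lay within the WT range. Abca1, the exporter that loads apolipoprotein A-I, read -0.11, 0.14 and 0.29 in KO, against 0.09, 0.13 and 0.24 in WT (-0.04 ± 0.12 SE), its highest and lowest arrays both being KO.

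The LXR genes themselves differed little. Nr1h2 (LXR beta) read 3.92, 4.26 and 4.24 in KO, against 4.07, 4.26 and 4.10 in WT, a difference of 0.00 ± 0.12 SE with a 95% interval of -0.29 to 0.29. Nr1h3 (LXR alpha) read -1.40, -1.03 and -1.04 in KO, against -0.78, -1.24 and -1.06 in WT (-0.13 ± 0.16 SE). The ubiquitin ligase gene Mylip measured -0.17 ± 0.14 SE, and Lpcat3, a phospholipid-remodelling enzyme under LXR, 0.01 ± 0.09 SE (95% interval -0.20 to 0.21). Lpcat3 was the single cholesterol gene with a higher mean in KO, a sign that turned with the array median as the scale.

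The difference in the synthesis enzymes was largest on KO replicate 3 and WT replicate 1. Relative to the WT mean, the median synthesis enzyme lay at -0.13, -0.22 and -0.62 on the KO arrays, against 0.21, -0.12 and -0.12 on the WT arrays. KO replicate 1 was thus within 0.01 of WT replicates 2 and 3. The SREBP regulators lay at -0.08, -0.11 and -0.45 in KO, against -0.01, -0.04 and 0.01 in WT, with KO replicate 3 low again. The LXR and efflux genes had another low array, with -0.29, 0.03 and 0.00 in KO against 0.02, -0.07 and 0.01 in WT. KO replicate 3 was the lowest of the 6 arrays for 15 of 18 synthesis enzymes and 5 of 6 SREBP regulators, against 18.1% of all genes. For the LXR and efflux genes KO replicate 3 was the lowest in 1 of 6, and KO replicate 1 in 4 of 6, where KO replicate 1 was the lowest for 17.3% of all genes. WT replicate 1 was the highest array for 11 of 18 synthesis enzymes, against 20.8% of all genes. The SD was larger among KO than among WT arrays for 13 of 18 synthesis enzymes, against 46.7% of all genes.

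**Figure D2:**
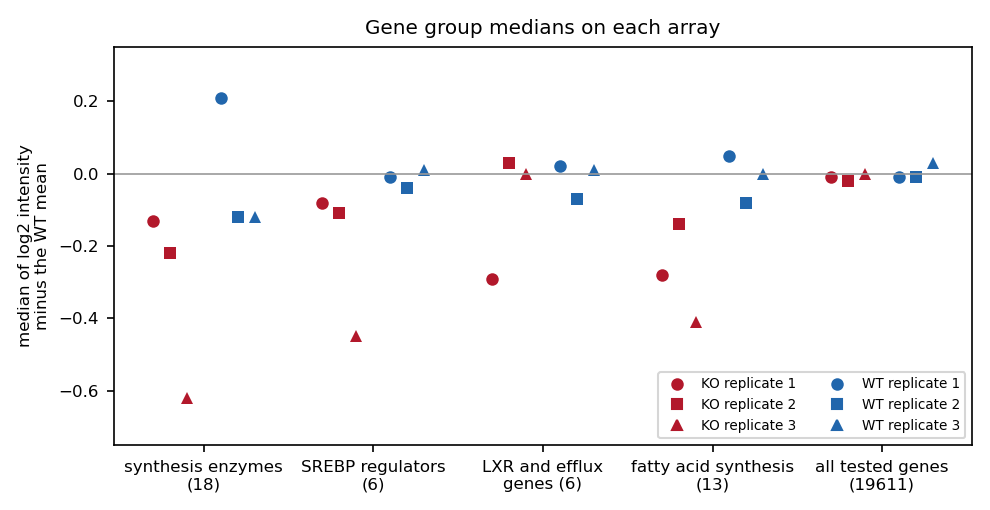
The plot gives the median, over the genes of each group, of the log2 intensity minus the WT mean, with 1 symbol per array, KO in red on the left and WT in blue on the right of each group. The median of all 19611 tested genes stays near 0 on every array, while the synthesis enzymes lie at -0.62 on KO replicate 3 and at 0.21 on WT replicate 1.

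The set of the synthesis enzymes against the efflux genes, taken within each array, shows the same overlap. The synthesis median minus the efflux median was 0.16, -0.25 and -0.62 on the KO arrays, against 0.19, -0.05 and -0.13 on the WT arrays. KO replicate 1 lay near WT replicate 1, and KO replicates 2 and 3 lay below all WT arrays.

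These 2 arrays were singled out as the lowest KO and the highest WT array for the synthesis enzymes, so leaving them out had to shrink the difference, and the values that follow describe how much of it they held. The median was -0.20 without KO replicate 3, -0.28 without WT replicate 1 and -0.09 without both, against -0.42 with all arrays and -0.02 for all genes in the fit without both. The number of cholesterol genes lower at an unadjusted limma p under 0.05 was 1 without KO replicate 3, 1 without WT replicate 1 and 0 without both, against 6 with all arrays. The share of all genes so called was lower as well, at 2.79%, 2.90% and 1.86%, against 5.24%. Without both, 15 of 18 synthesis enzymes still had lower means in KO. Single enzymes differed in how much rested on these arrays. Msmo1 measured -0.25 without KO replicate 3 and -0.04 without both, and Sqle -0.38 and -0.24. Cyp51 and Idi1 measured -0.20 and -0.09 without KO replicate 3, and turned to 0.01 and 0.06 without both. Mvd kept -0.42 without KO replicate 3, -0.67 without WT replicate 1 and -0.47 without both, and Nsdhl -0.44, -0.40 and -0.34.

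**Figure D3:**
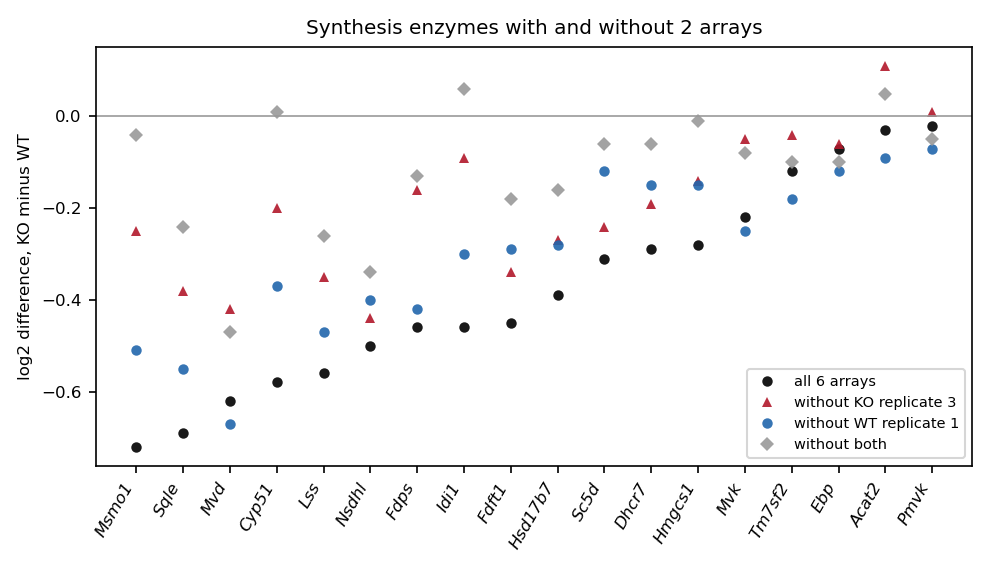
The plot gives the log2 difference, KO minus WT, of each synthesis enzyme with all 6 arrays (black), without KO replicate 3 (red), without WT replicate 1 (blue) and without both (grey). With all arrays every difference is below 0 (that of Pmvk turned under quantile normalization), and without both arrays Msmo1 is at -0.04 while Mvd is at -0.47 and Nsdhl at -0.34.

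KO replicate 3 shared slide 2 with WT replicate 3. The synthesis median of WT replicate 3 was -0.12, against 0.21 and -0.12 on WT replicates 1 and 2 of slide 1. The part of the slide in the low values of KO replicate 3 was not tested. Within slide 1, with 2 arrays per genotype, the median difference was -0.27 for the synthesis enzymes, -0.08 for the SREBP regulators and -0.08 for the LXR and efflux genes, with 3 cholesterol genes lower at an unadjusted limma p under 0.05, against 2.30% of all genes. Within slide 2, with 1 array per genotype and no test, the medians were -0.54, -0.43 and 0.03. Within slide 1 Acat2 and Insig1 measured 0.22 each, against -0.52 and -0.49 within slide 2. With the slide as a block, 8 cholesterol genes were lower at an unadjusted limma p under 0.05, against 4.86% of all genes, and 0 passed after adjustment.

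Markers of other cells were read beside these values. WT replicate 1, high in synthesis enzymes, had the lowest neutrophil sum (102, given above) and the lowest erythroid sum, 11.6 in multiples of the 75th percentile, against 26.3, 23.3 and 26.6 in KO and 47.9 and 42.2 on the other WT arrays. KO replicate 3, low in synthesis enzymes, had a neutrophil sum of 423 and an erythroid sum of 26.6, both inside the range of the other arrays. All 12 neutrophil markers were well above background on all 6 arrays, with S100a9 the brightest (7.90, 7.56 and 7.82 in KO, against 5.80, 8.12 and 8.04 in WT). The monocyte markers summed to 5.93 to 7.55 in KO and 4.96 to 6.81 in WT, and 6 of the 8 on the array were well above background on all arrays, Cd68 being the brightest. By gene, 7 of 8 had higher means in KO, where 51.7% of all genes had lower ones, with a median difference of 0.45. Of these 7, Ccr2 and Cx3cr1 passed the filter through the KO arrays. They were well above background on all 3 of these but on just 2 WT arrays. Both are still included in the 7 and in the median. At an unadjusted limma p under 0.05, 1 of 8 was higher, against 6.96% of all genes. All KO arrays lay above all WT arrays for 2 of 8, against 9.36% of all genes. These were the macrophage genes Emr1 (0.76 ± 0.25 SE) and Mrc1 (0.77 ± 0.34 SE), with WT replicate 1 the lowest array for both. The macrophage gene Marco, the 1 gene with a lower mean in KO, measured -1.28 (95% interval -3.68 to 1.11). Marco read -3.58, -3.58 and -3.45 in KO, against 0.33, -3.36 and -3.73 in WT, with WT replicate 1 far above the rest. The B cell genes Ebf1 and Pax5, the T cell gene Cd8a and the dendritic cell gene Clec9a were not well above background on any array. Other markers of these lists were so on all 6 arrays: 2 of 6 for B cells, 4 of 6 for T and NK cells and 2 of 5 for dendritic cells. The part of these cells in the values of the cholesterol genes was not tested.

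The gate genes were detected as labelled for c-Kit and Sca-1. Kit measured -0.09 ± 0.12 SE and Ly6a, the gene of Sca-1, 0.08 ± 0.17 SE between KO and WT. Cd48, whose protein the gate selects against, was well above background on all 6 arrays, at -0.27, -0.15 and 0.20 in KO against -0.67, 0.01 and 0.09 in WT. Its lowest array was WT replicate 1. Of 4 multipotent progenitor genes, 3 had all KO arrays above all WT arrays, against 9.36% of all genes. The same 3 were higher at an unadjusted limma p under 0.05, against 6.96% of all genes, and the median difference over the 4 was 0.44. They were the receptor gene Flt3 (0.42 ± 0.13 SE), the chromatin organiser gene Satb1 (0.46 ± 0.12 SE) and Notch1 (0.65 ± 0.19 SE), with limma adjusted p of 0.365 to 0.370, while Cd34 measured 0.00 ± 0.09 SE. The part of this shift in the values of the cholesterol genes was not tested. The brightest markers of the other lists were Hlf of stem cells, Cd79b of B cells, Nkg7 of NK cells, Hba-a1 of erythroid cells, Pf4 of megakaryocytes and Siglech of plasmacytoid dendritic cells.

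A second probe was tested for 10 of the 30 genes and gave the same direction for 8 of them. Adjusted over 27809 probes, 0 of the 40 cholesterol probes were called with limma at 0.05, where 9 probes (0.0324%) were. Hsd17b7 measured -0.55 ± 0.23 SE with its second probe, beside -0.39 with the first, and Mvk -0.29 ± 0.16 SE beside -0.22. Pmvk measured -0.11 ± 0.08 SE with its second probe and had no overlap between genotypes there. Nsdhl and Insig2 were split between probes. The second Nsdhl probe, at 70203793 to 70203852, measured 0.10 ± 0.17 SE (limma adjusted p = 0.817), whereas the first measured -0.50. The second Insig2 probe, annotated to another RefSeq transcript of the gene, read -0.08, -0.30 and -0.31 in KO, against -0.41, -0.56 and -0.43 in WT. It lay wholly above WT in KO (0.24 ± 0.10 SE, limma adjusted p = 0.449), while the first probe lay wholly below. The 3 probes that were not tested belong to Hmgcs1, Fdft1 and Hsd17b7, and were well above background on at most 1 array.

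**Figure D4:**
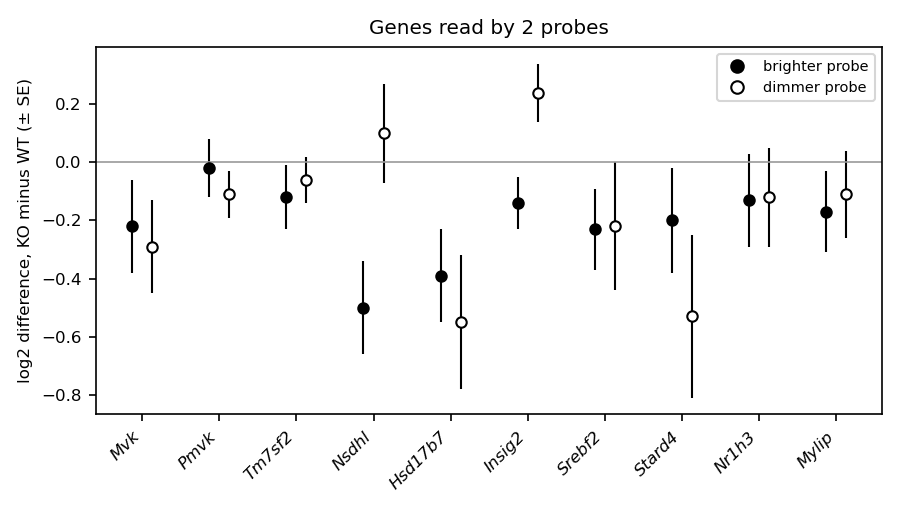
The plot gives the log2 difference, KO minus WT, with its SE for the 10 cholesterol genes that 2 tested probes read. Filled symbols are the brighter probe, used for the gene, and open symbols the dimmer one. The pairs lie on the same side of 0 except for Nsdhl (-0.50 and 0.10) and Insig2 (-0.14 and 0.24).

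Neighbouring pathways were read from lists of further genes. Genes of fatty acid synthesis under SREBP-1 had a median difference of -0.25, with 12 of 13 lower in mean, against 51.7% of all genes, and 0 called. Scd2 was lower at an unadjusted limma p under 0.05, as were 5.24% of all genes. On the arrays the median of the list lay at -0.28, -0.14 and -0.41 in KO, against 0.05, -0.08 and 0.00 in WT. Scd1, a desaturase that makes oleate, passed the filter through the WT arrays, since it lay well above background on all 3 of these but on just 1 KO array. Its reading of -4.59, -4.03 and -5.79 in KO against -3.69, -3.49 and -3.36 in WT is therefore given without a test. Scd1 is still included in the median of the list and among the 12 lower in mean. The related Scd2 measured -0.59 ± 0.25 SE and the fatty acid synthase gene Fasn -0.55 ± 0.24 SE, with limma adjusted p of 0.409 and 0.416. The desaturase gene Fads1 measured -0.37 ± 0.17 SE.

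Genes of sterol uptake, transport, storage and SREBP cleavage had a median of -0.13, with 9 of 14 lower in mean, against 51.7% of all genes, and 0 called. At an unadjusted limma p under 0.05, 2 of 14 were lower, against 5.24% of all genes. Named from this list were the oxysterol-binding protein gene Osbp (-0.23 ± 0.09 SE), Tmem97 (-0.32 ± 0.13 SE), the sterol transfer gene Stard3 (-0.17 ± 0.08 SE) and the lipoprotein receptor gene Vldlr (-0.42 ± 0.22 SE). Genes of other isoprenoid products and of prenylation had a median of -0.06, with 10 of 13 lower in mean, against 51.7% of all genes. At an unadjusted limma p under 0.05, 1 of 13 was lower, against 5.24% of all genes. That gene was Icmt, which methylates prenylated proteins (-0.26 ± 0.10 SE, limma adjusted p = 0.402), and the others named were Rabggtb (-0.32 ± 0.17 SE), Rce1 (-0.17 ± 0.13 SE) and Pdss1 (0.13 ± 0.10 SE). Of 10 oxysterol genes and LXR partners 7 were tested, with a median of 0.04 and 3 of 7 lower in mean, against 51.7% of all genes. At an unadjusted limma p under 0.05, 1 of 7 was higher, against 6.96% of all genes. It was Cyp46a1, a cholesterol hydroxylase (0.53 ± 0.19 SE, limma adjusted p = 0.382), and the LXR partner Rxra measured 0.34 ± 0.15 SE, Abcg4 0.16 ± 0.11 SE and Cyp7b1 -0.07 ± 0.14 SE. No gene of these 4 lists passed the adjusted threshold.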

How the data were processed

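Gene expression was measured in 3 KO and 3 WT samples on Agilent 1-colour arrays. Per the file headers, the authors scanned the arrays and extracted intensity values with Agilent Feature Extraction 10.7.3.1, which subtracted background and corrected spatial trends, with no scaling between arrays. The deposited value table holds the same signal divided by 1 constant per array (304.4 to 368.2, column medians 0.0638 to 0.075), on a linear scale and not centred, as set against the scanner values.

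Control and outlier spots were left out, and log2 of the deposited intensity was taken minus each array's 75th percentile (345 to 417 intensity units). The probe with the highest mean stood for each gene, and genes had to be well above background on all 3 arrays of 1 genotype. The number of arrays limits the precision. KO was compared with WT by limma 3.58.1 in R 4.3.3 (lmFit, eBayes) with Benjamini-Hochberg adjustment, and the code was tested on simulated data. Unadjusted p under 0.05 was counted beside it. Alternatives covered normalization, the filter, probes, slides and each array left out. Probe positions are mm9, per the file headers, and exons or untranslated regions under probes were not analysed here. Promoters are from RefSeq. All cholesterol genes were named, and of each further list the up to 4 genes with the smallest p. Emr1, Mrc1, Marco, Ccr2, Cx3cr1, Flt3, Satb1 and Notch1 were named among the markers after their values were seen. The genes and lists were chosen with earlier results of these data known.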

Additional observations from a re-analysis of the deposited data

How the results depend on the processing

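No cholesterol gene passed after adjustment with limma in any alternative that allowed a test, where the smallest adjusted p lay between 0.256 and 0.928. The number lower at an unadjusted limma p under 0.05 was 6 with all arrays, where 5.24% of all genes were lower. It was 15 with the array median in place of the 75th percentile. That scaling moved the median of all genes to -0.13 and gave 14.2% of all genes as lower. The number was 3 without the filter on dim genes, within slide 1 and with the slide as a random block, against 2.87%, 2.30% and 4.81% of all genes. It ran from 1 to 8 over the arrays left out in turn, against 2.79% to 6.46% of all genes. It was 0, against 1.86%, without WT replicate 1 and KO replicate 3 together, a pair chosen after the data had been seen, as was the random block. The median of the synthesis enzymes was then -0.09, and ran from -0.50 to -0.20 over the arrays left out in turn, and that of the SREBP regulators -0.43 within slide 2. Calls over all genes, 4 with all arrays, ran from 0 to 13 over the alternatives. The median of the LXR and efflux genes, -0.09 with all arrays, was 0.01 without KO replicate 1, 0.03 within slide 2, -0.14 without WT replicate 2 and -0.21 with the array median, where that of the SREBP regulators was -0.30 and that of the synthesis enzymes -0.54.

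Same-numbered arrays correlated at -0.03, 0.15 and 0.07 in their deviations from the group means, and differently numbered arrays at -0.23 to 0.18. Deviations from a mean of 3 arrays are tied to each other, so these values cannot show whether the numbers pair the samples. With a replicate block the medians were -0.42, -0.17 and -0.09. In that fit 8 cholesterol genes were lower at an unadjusted limma p under 0.05, against 4.44% of all genes, and 0 were called.

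Of the values of single genes under the alternatives, 33 changed sign, 552 moved by less than the spread between arrays or kept their side of the threshold, and 15, all within slide 2, moved further. Under quantile normalization Nr1h2 and Pmvk measured 0.03 each, as they did under normexp. Lpcat3 measured -0.12 with the array median, and Insig2 0.05 with the mean of its probes. Within slide 1 the values were 0.22 for Acat2, 0.05 for Ebp, 0.22 for Insig1, -0.01 for Lpcat3, 0.05 for Pmvk and 0.03 for Stard4, and within slide 2 they were 0.05 for Abca1, 0.14 for Nr1h2 and 0.02 for Nr1h3. Over the arrays left out in turn or as the pair, the ranges that crossed 0 were -0.24 to 0.11 for Acat2, -0.08 to 0.03 for Pmvk, -0.79 to 0.01 for Cyp51, -0.64 to 0.06 for Idi1, -0.14 to 0.04 for Ebp, -0.21 to 0.20 for Insig1, -0.16 to 0.06 for Abca1, -0.09 to 0.11 for Nr1h2 and -0.02 to 0.06 for Lpcat3. The causes were not tested. With 3 arrays per genotype, the number of arrays limits which differences can be called.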
